A study of Mus musculus with 6 samples.

Results

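The genes described here encode the small subunit of the mitochondrial ribosome. They were taken by symbol: every row whose name starts with Mrps and a digit, plus Dap3 and Ptcd3, with a mean of at least 10 normalised read counts over the 6 libraries. The table held 31 such rows and all 31 reached the minimum, out of 11947 genes that did. The rule uses no fold change, and the member with the lowest mean stood at 649.5, far above it. The name of the set holds for 28 of the 31. Mrps18a and Mrps30 belong to the large subunit in the known structures of the ribosome, and Mrps36 is now counted as a subunit of the oxoglutarate dehydrogenase complex. Chchd1 and Aurkaip1 are small subunit proteins with other names, and are given beside the set.

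Poly(A) RNA had been sequenced from mouse T cells of C57BL/6 background cultured as pathogenic Th17 cells, the IL-17-producing helper cells that depend on IL-23. Naive CD4 cells had received antibodies to CD3 and CD28 and were kept for 2 days with 3 cytokines, IL-23, IL-6 and IL-1b. The 3 libraries called Stat3C came from Stat3CSTOPfl/fl CD4-Cre cells, in which Cre under control of the Cd4 promoter cuts out a stop cassette and so turns on a constantly active form of the transcription factor STAT3. The 3 libraries called Stim1KO Stat3C came from Stim1fl/fl Stat3CSTOPfl/fl CD4-Cre cells, which carry the same active STAT3 and in addition lose the floxed part of Stim1, the calcium sensor of the endoplasmic reticulum. Active STAT3 and Cre are thus shared by both groups, and no group without them was measured. The labels state neither the age of the mice nor whether each library had a mouse of its own, so p-values measure the spread between these libraries, which may be technical in part. The question put to the data is whether transcripts of the small subunit changed with the loss of Stim1, and the series title names mitochondrial metabolism.

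The mitochondrial ribosome translates the few proteins encoded by mitochondrial DNA, all of them subunits of the respiratory chain and ATP synthase. Its small subunit binds the mRNA and holds the decoding centre, where codon and tRNA anticodon are matched, on a scaffold of 12S ribosomal RNA that mitochondrial DNA itself encodes. All of its proteins are encoded in the nucleus, made in the cytosol and imported. Some descend from bacterial ribosomal proteins and others are found in mitochondria alone. Activated T cells enlarge their mitochondria as they leave the naive state, and this needs mitochondrial translation.

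The label of the second group held in its target gene. Stim1 stood at 1999, 1969 and 1931 normalised counts in Stat3C and at 810.7, 793.6 and 686.7 in Stim1KO Stat3C, with no overlap. Recovered reads ranged from 16009755 to 51347367 per library. The Stat3C libraries held 51347367, 43532417 and 23092044 and the Stim1KO Stat3C libraries 16009755, 20660749 and 22519269. Every Stat3C library was thus deeper than every Stim1KO Stat3C library, so depth and genotype went together. Of the markers of Th17 cells, Cd3e, Cd4, Il17a, Il17f and Il23r were present in every library, with Il17a at 2593 to 3919 in Stat3C and 409.1 to 586.1 in Stim1KO Stat3C. The T cell markers went the other way: Cd3e rose from 3053 ± 113.6 to 3683 ± 130.5 (SD, n = 3, limma adjusted p = 0.0163), and Cd4 stood at 7834 to 8483 against 9288 to 11543, without overlap (limma adjusted p = 0.0529). Markers of other cells were low but unequal. Of the B cell markers, Ms4a1 stood at 8.6 to 24.2 in Stat3C and at 0 in all 3 Stim1KO Stat3C libraries, Cd79a at 21.2 to 71.7 against 0 to 9.7, and Cd79b at 20.8 to 44.6 against 6.4 to 32.8. Cd8a stood at 87.6 to 184.1 against 5.4 to 17.9. Summed myeloid markers (Emr1, Csf1r, Lyz2, Itgam) came to 125.9 in Stat3C replicate 2 and to 3.0 to 28.6 in the other 5 libraries. The 3 natural killer cell markers summed to 2.1 to 13.7 and the 2 erythroid markers were at 0. Xist was found only in replicate 3 of each group, at 8362 and 11549, against at most 3.5 in the other 4. The part of these other cells in the results below was not tested. In bulk RNA, fewer cells of a type and less RNA per cell cannot be told apart.

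Promoters of the members that fell are shown first, so that the letters near their starts can be set beside their values. The stretches run from 120 bases before to 30 bases from the RefSeq start of transcription (build GRCm38.p6), 5′ to 3′ on the strand of the gene, and are from RefSeq. Capitals mark exact matches to CCGGAAG or its reverse CTTCCGG, the core bound by ETS factors such as GABP, and to AAGATGGC or its reverse GCCATCTT, the core bound by YY1. Both factors are known regulators of nuclear genes for mitochondria. Mrps12 lies at chr7:28741792-28741941 (minus strand), Mrps26 at chr2:130563637-130563786 (plus), Mrps27 at chr13:99344666-99344815 (plus) and Mrps7 at chr11:115604020-115604169 (plus). The Mrps7 stretch lies inside the gene as the GENCODE annotation spans it (from 115603925), so RefSeq and GENCODE start Mrps7 at different bases. Mrps21, at chr3:95871485-95871634 (minus), is added as the single member whose fold change was positive.
Mrps12: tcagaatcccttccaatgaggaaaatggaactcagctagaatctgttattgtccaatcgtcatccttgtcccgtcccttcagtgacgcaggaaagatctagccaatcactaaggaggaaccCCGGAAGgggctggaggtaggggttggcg
Mrps26: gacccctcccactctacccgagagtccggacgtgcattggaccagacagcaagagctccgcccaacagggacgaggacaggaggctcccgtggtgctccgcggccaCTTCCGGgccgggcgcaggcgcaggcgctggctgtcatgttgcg
Mrps27: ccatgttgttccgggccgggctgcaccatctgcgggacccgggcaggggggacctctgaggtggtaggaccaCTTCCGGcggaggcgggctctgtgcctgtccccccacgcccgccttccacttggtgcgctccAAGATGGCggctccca
Mrps7: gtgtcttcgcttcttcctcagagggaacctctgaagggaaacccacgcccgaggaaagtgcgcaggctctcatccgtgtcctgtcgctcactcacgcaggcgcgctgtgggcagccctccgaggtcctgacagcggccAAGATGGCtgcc
Mrps21: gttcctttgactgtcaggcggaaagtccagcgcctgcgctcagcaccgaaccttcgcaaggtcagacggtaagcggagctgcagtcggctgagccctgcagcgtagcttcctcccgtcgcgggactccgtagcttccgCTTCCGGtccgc

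Promoters (250 bases before to 50 from the start) were found for 27 of the 31 members, 28 promoters in all, as Mrps16 has 2 starts. Dap3, Mrps28, Mrps34 and Mrps35 had no entry. The YY1 letters were present in 7 of the 28 (25%), against 13% of 46 promoters of the large subunit, 4.55% of the 11418 promoters of genes tested and 2.75% of all 32851 promoters. In 5 of those 7 genes, Mrps18a, Mrps24, Mrps27, Mrps7 and Ptcd3, the match read AAGATGGC on the strand of the gene and began 12 to 37 bases from the start, counting the start as 1. In Mrps11 and Mrps12 it was on the other strand, 107 and 199 bases before the start. The ETS letters were present in 11 of 28 (39.3%), against 28.3% of the large subunit, 17.8% of genes tested and 8.86% of all promoters.

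Letters for other factors were rare, or less far from their share in genes tested. NRF1, a regulator of many mitochondrial genes, has the core GCATGCGC (reverse GCGCATGC), found in 1 of 28 promoters (3.57%), that of Mrps18b, against 15.2% of the large subunit and 5.32% of genes tested. The E-box CACGTG bound by MYC was in 3.57% (10.1% of genes tested) and the CRE TGACGTCA in 0 (3.09%). The NFAT core GGAAAA or TTTTCC, bound by the calcium-dependent NFAT factors, was in 28.6%, beside 20.8% of genes tested, and CCAAT or ATTGG in 46.4%, beside 38.1%. Of the 4 members that fell, 3 held the YY1 letters and 3 the ETS letters. The median log2 fold change was -0.25 in the 7 members with the YY1 letters and -0.18 in the 20 without, and -0.19 in the 11 with and -0.20 in the 16 without the ETS letters. A match is a description of letters and shows no binding. The median GC content of the promoters was 58.8% in the members and 59.6% in genes tested.

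**Figure D1:**
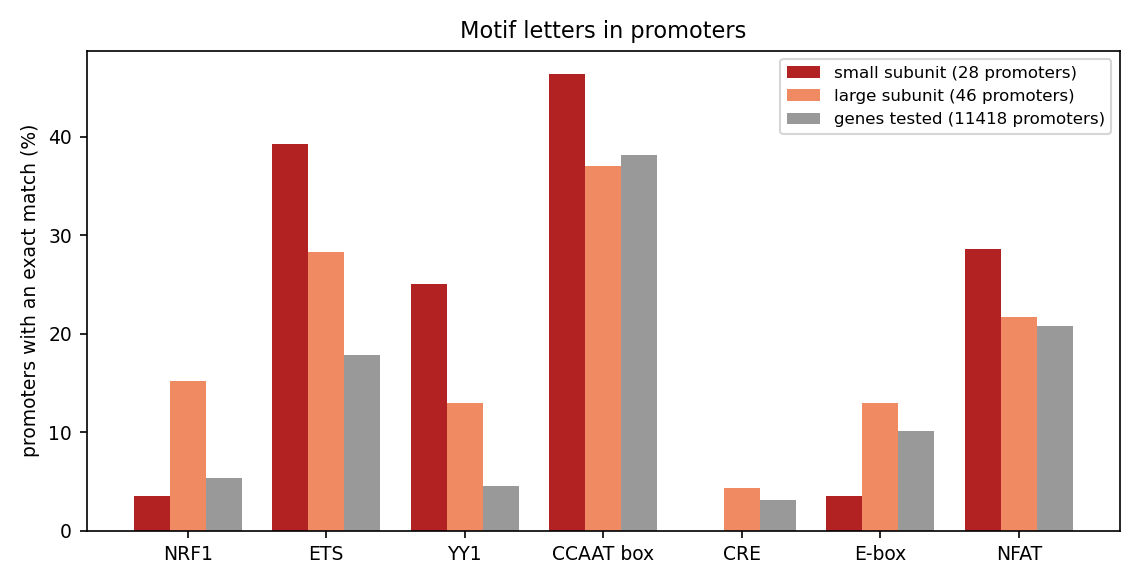
Share of promoters (vertical axis, percent) holding an exact match on either strand to the letters of each motif (horizontal axis), for the small subunit, the large subunit and all genes tested. The YY1 letters were in 25% of small subunit promoters and 4.55% of those of genes tested, and the NRF1 letters in 3.57% and 5.32%.

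Transcripts of the small subunit were slightly lower in Stim1KO Stat3C almost throughout. The log2 fold change (difference of mean log2(value + 1), with Stat3C subtracted) was negative for 30 of the 31 members, where 50.2% of all genes tested were negative. Its median was -0.19, beside 0.00 over all genes tested (-0.001 before rounding), and the members ranged from -0.36 (Mrps28) to 0.075 (Mrps21). At an adjusted p of 0.05 (limma with a variance trend, Benjamini-Hochberg over all 11947 genes) 4 members fell, Mrps12, Mrps26, Mrps27 and Mrps7. That is 12.9% of the members, where 4.96% of all genes tested fell. Of the 4222 genes tested with a mean in the range of the members, 6.63% fell. By limma 0 members rose, also 0 at an unadjusted p under 0.05 and 0 by edgeR and by DESeq2, where 8.62% of all genes tested rose. The number that fell rests on single libraries, and ranged from 0 without Stat3C replicate 1 to 12 without Stat3C replicate 2. All genes called in either direction numbered 617 and 2899 in those fits, and 1623 with all 6 libraries. A further 13 members had all 3 Stim1KO Stat3C values below all 3 Stat3C values without passing the test. That made 17 of 31 (54.8%) lower without overlap and 0 higher without overlap, against 16.4% lower and 19.2% higher among all genes tested. Of the 4222 genes in the range of the members, 824 (19.5%) lay lower and 867 higher without overlap. Summed over the 31 members, the Stat3C libraries held 45018, 41989 and 46226 counts and the Stim1KO Stat3C libraries 38104, 39213 and 40680. The groups did not overlap in this sum, and the difference of its means was -11.4% (44410 ± 2182 and 39330 ± 1292, SD, n = 3 each).

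**Figure D2:**
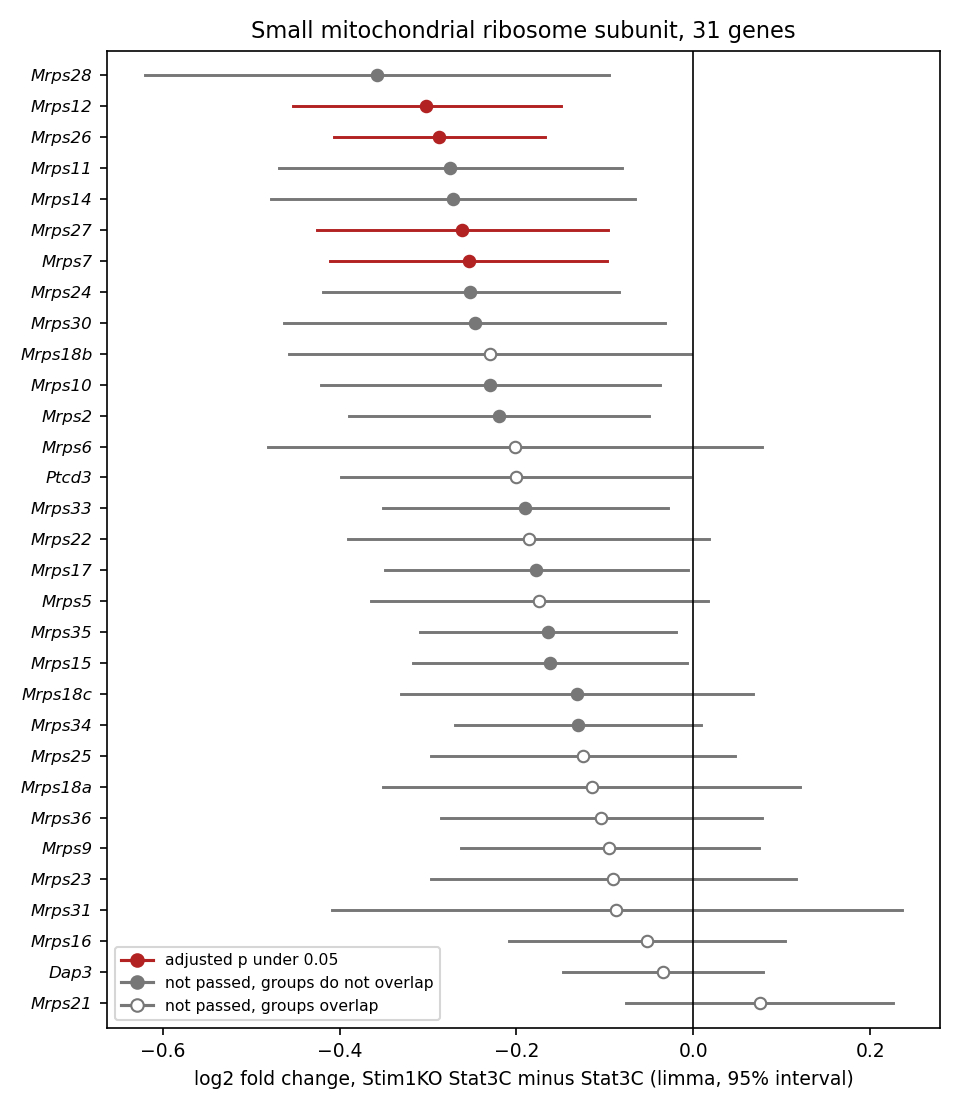
Log2 fold change of each of the 31 members (horizontal axis, Stim1KO Stat3C minus Stat3C, limma on log2(value + 1)) with its 95% interval, ordered by size. Red marks the 4 members past an adjusted p of 0.05, filled grey points the 13 others whose groups do not overlap and open points the 14 whose groups overlap, and Mrps21 is the single point above 0.

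Homologues of bacterial proteins gave 2 of the 4 calls. Mrps12, which encodes the homologue of bacterial S12, a protein of the decoding centre, stood at 1156, 1076 and 1146 in Stat3C and at 909.3, 881.6 and 949.4 in Stim1KO Stat3C. All 3 values of the second group lay below the first, and the mean fell by 18.9% (log2 fold change -0.30, SE 0.07, limma adjusted p = 0.0225). Mrps7, the homologue of bacterial S7 in the head of the subunit, stood at 2624, 2486 and 2730 against 2056, 2168 and 2358. The groups again did not overlap, and the mean fell by 16.1% (log2 -0.25, SE 0.07, limma adjusted p = 0.045).

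Members found in mitochondria alone gave the other pair. Mrps26 stood at 1842, 1882 and 1833 in Stat3C and at 1501, 1530 and 1523 in Stim1KO Stat3C. The 3 libraries of each group lay close together, with SDs of 26.1 and 15.2, and the mean fell by 18.1% (log2 -0.29, SE 0.05, limma adjusted p = 0.0115), the smallest adjusted p of the 31. Mrps27, a pentatricopeptide repeat protein that binds RNA, stood at 1596, 1386 and 1484 against 1189, 1292 and 1242. The groups did not overlap, and the mean fell by 16.7% (log2 -0.26, SE 0.07, limma adjusted p = 0.0487).

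**Figure D3:**
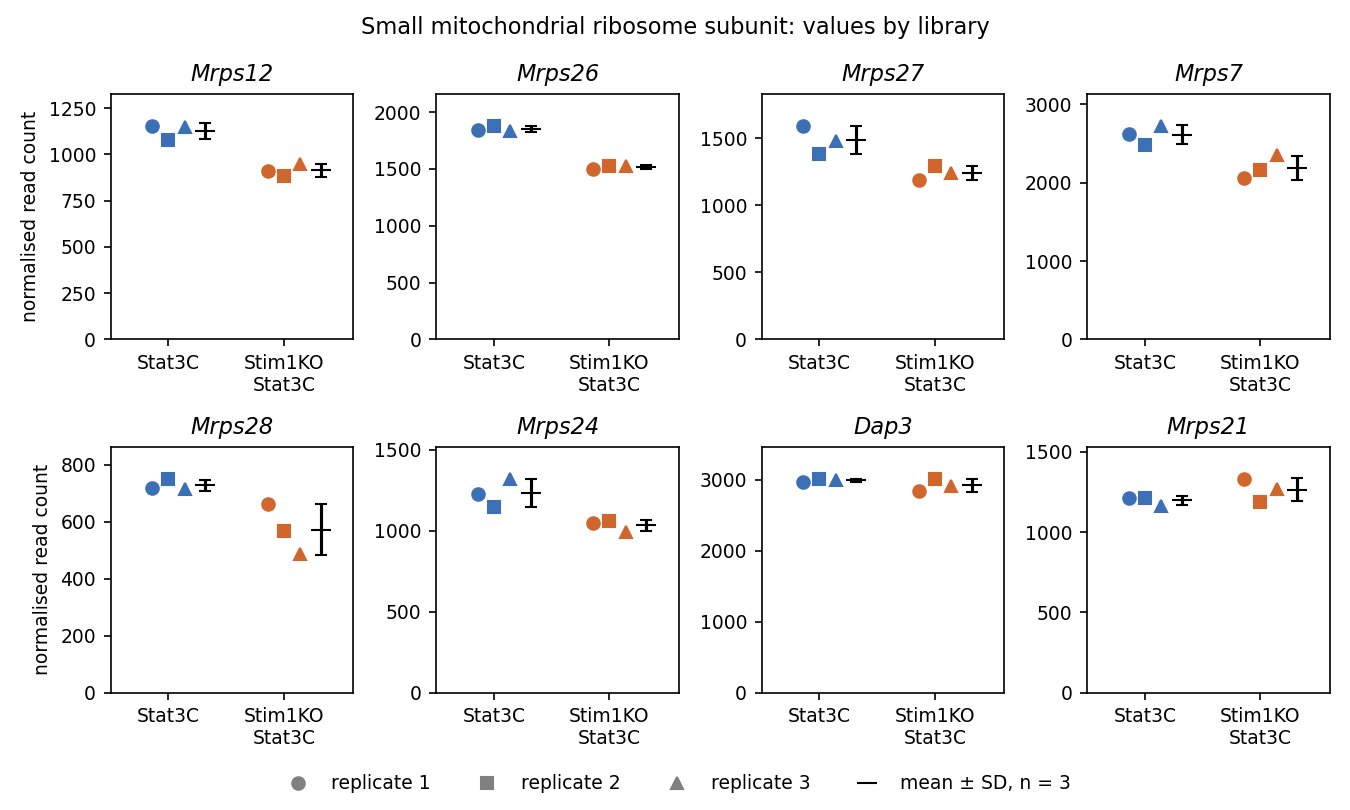
Normalised read count (vertical axis, from 0) of 8 members in each of the 6 libraries, with symbols for replicates 1 to 3 and the mean ± SD of each group (n = 3). The groups lie apart in Mrps12, Mrps26, Mrps27, Mrps7, Mrps28 and Mrps24 and overlap in Dap3 and Mrps21.

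The most negative fold change did not pass the test. Mrps28, related to bacterial S1, stood at 716.9, 749.9 and 715.1 in Stat3C and at 662.8, 567 and 485.6 in Stim1KO Stat3C. The groups did not overlap and the difference of the means was -21.4%, but the Stim1KO Stat3C libraries were spread (SD 88.7 against 19.6), and the log2 fold change of -0.36 had a 95% interval from -0.62 to -0.10 (limma adjusted p = 0.0753). Mrps24, the homologue of bacterial S3 near the mRNA entry, stood at 1226, 1149 and 1322 against 1046, 1062 and 992.2 (log2 -0.25, limma adjusted p = 0.0565). Of the 20 alternative analyses, Mrps28 gained a call in 3 and Mrps24 in 4, with DESeq2 among them for both.

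The homologues Mrps11, Mrps14, Mrps2 and Mrps10 likewise lay lower without overlap and missed the threshold. Mrps11 stood at 840.3, 839.6 and 897.3 against 647.8, 773.2 and 712.5 (log2 -0.28, limma adjusted p = 0.0673). Mrps14 stood at 1175, 1232 and 1338 against 935.3, 1030 and 1141 (log2 -0.27, limma adjusted p = 0.0827). Mrps2 and Mrps10 had log2 fold changes of -0.22 and -0.23 (limma adjusted p = 0.087 and 0.107). Mrps11, Mrps14 and Mrps2 each gained a call in 3 of the 20 alternative analyses, and Mrps10 in 2. DESeq2 was among these for Mrps11 and Mrps14. Human patients with variants in several of these genes, among them MRPS2, MRPS7, MRPS14 and MRPS28, have combined deficiencies of the respiratory chain.

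The smallest differences were found in Dap3, Mrps16 and Mrps21. Dap3, a GTP-binding protein of the subunit that was first named as a mediator of cell death, stood at 2965, 3009 and 3004 in Stat3C and at 2844, 3015 and 2909 in Stim1KO Stat3C. The values overlapped, and the 95% interval of the log2 fold change ran from -0.15 to 0.08, which does not reach the estimates of the 4 members that fell. Mrps16 stood at 1307, 1362 and 1456 against 1315, 1273 and 1392 (95% interval -0.21 to 0.10). Mrps21, the homologue of bacterial S21, stood at 1213, 1215 and 1164 against 1331, 1189 and 1266. It was the single member with a higher mean in Stim1KO Stat3C, by 5.4%, with overlapping values (95% interval -0.08 to 0.23, limma adjusted p = 0.472). Whether these members differ from those that fell was not tested.

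The remaining members lay between these. Among the homologues, Mrps15, Mrps17, Mrps5, Mrps6, Mrps18c and Mrps9 had log2 fold changes of -0.16, -0.18, -0.17, -0.20, -0.13 and -0.10. Among the members classed as proteins of mitochondria alone, Mrps18b, Ptcd3, Mrps33, Mrps22, Mrps35, Mrps34, Mrps25, Mrps23 and Mrps31 ranged from -0.23 (Mrps18b) to -0.09 (Mrps31). Ptcd3, a pentatricopeptide repeat protein of the small subunit, stood at 3321, 2929 and 3335 against 2481, 2875 and 2994, with Stat3C replicate 2 inside the range of the other group. Mrps35 stood at 850.2, 843.1 and 857.5 against 768.3, 743.1 and 765.3, a difference of -10.8% without overlap that missed the threshold (limma adjusted p = 0.124). Mrps31 was the most variable, at 677.1, 566.6 and 832.3 against 698.4, 588.5 and 648.8.

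Both classes of protein gave calls. Of the 16 homologues of bacterial proteins 2 fell, with a median log2 fold change of -0.21, and of the 12 proteins of mitochondria alone 2 fell, with a median of -0.175. Without overlap, 11 of 16 and 5 of 12 lay lower. Mrps18b was counted in the second class, though it shares the name S18 with Mrps18c of the first, and the class counts and medians rest on this choice. The difference between the classes was not tested. Mrps18a stood at 1175, 1049 and 1151 against 917.5, 1018 and 1194, with overlap, and Mrps30 at 1610, 1492 and 1546 against 1141, 1326 and 1467, without overlap (limma adjusted p = 0.479 and 0.119). Mrps36 stood at 801.3, 713.2 and 826.5 against 717.6, 716.3 and 740.4 (log2 -0.10, limma adjusted p = 0.403). With these 3 left out and Chchd1 and Aurkaip1 taken in, 4 of 30 small subunit genes fell and 29 were negative, with a median of -0.19. Chchd1 itself stood at 1265, 1195 and 1249 against 910.7, 880.5 and 1228, so Stim1KO Stat3C replicate 3 lay among the Stat3C values, and Aurkaip1 at 1888, 1889 and 2108 against 1778, 1681 and 1766 (limma adjusted p = 0.129 and 0.12).

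Many members were high or low in the same libraries. Stat3C replicate 2, the library with the most myeloid reads, was the lowest of its group in 22 of 31 members, and Stat3C replicate 3 the highest in 18. In Stim1KO Stat3C, replicate 1 was the lowest in 15 and replicate 3 the highest in 17. Of the 14 members whose groups overlapped, 8 no longer did without Stat3C replicate 2, which raised the members lower without overlap from 17 to 25. Fewer libraries separate more easily, and the share of all genes tested that separated without this library was not counted. The number that fell in the test then rose from 4 to 12, with a median log2 fold change of -0.26. The added calls were Mrps10, Mrps18b, Mrps2, Mrps22, Mrps24, Mrps33, Mrps5 and Ptcd3. Leaving out any other single library left 0 to 3 calls: 0 without Stat3C replicate 1 (8 at an unadjusted p under 0.05 by limma), 1 when Stat3C replicate 3 was dropped and 1 when Stim1KO Stat3C replicate 2 was, 2 after dropping Stim1KO Stat3C replicate 1 and 3 after dropping its replicate 3. Mrps26 fell in 5 of these 6 fits, and without Stat3C replicate 1 its adjusted p was 0.0572 with a log2 fold change of -0.29. Over all 20 alternative analyses Mrps26 lost its call in 1, Mrps12 in 5, Mrps7 in 7 and Mrps27 in 10. With the log2 Xist value as a covariate, Mrps27 lost its call (adjusted p = 0.059) and Mrps14 gained one (0.0369). The 4 estimates stayed between -0.35 and -0.21 throughout.

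**Figure D4:**
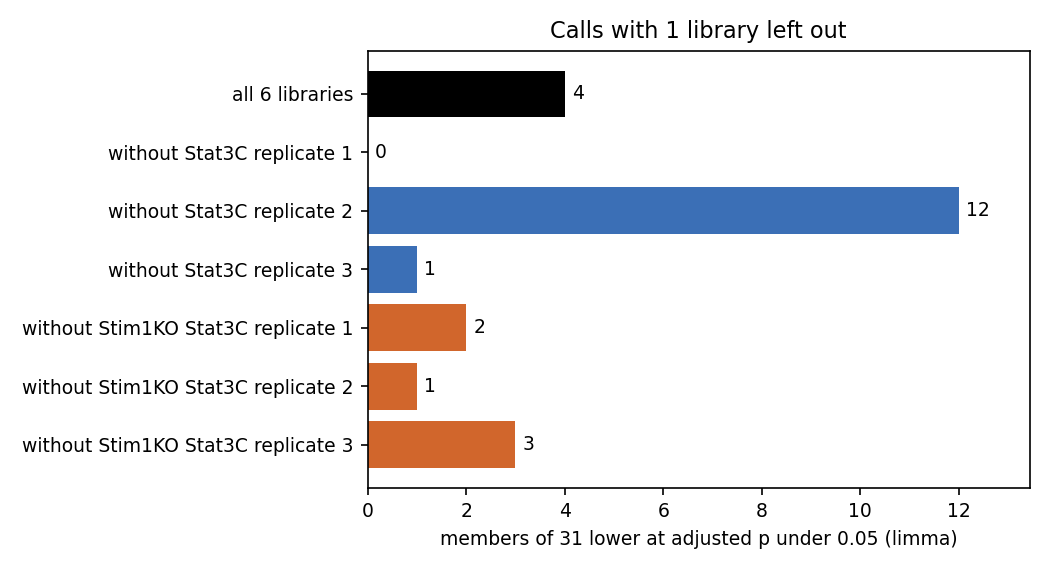
Number of the 31 members lower at an adjusted p under 0.05 (horizontal axis, limma) with all 6 libraries and with each library left out in turn, blue for Stat3C and orange for Stim1KO Stat3C. The number is 4 with all libraries, 12 without Stat3C replicate 2 and 0 to 3 without any other.

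The large subunit, the nearest relative of the set, lay lower too. Of its 49 genes 16 fell (32.7%) and Mrpl33 rose, with a median log2 fold change of -0.23. Its smallest adjusted p belonged to Mrpl34 (1132, 1046 and 1111 against 818.9, 811.8 and 828). By edgeR on recovered reads the numbers that fell were the same, 4 small and 16 large subunit genes, and by DESeq2 they were 8 and 21. All genes called in either direction numbered 1507 by edgeR and 2250 by DESeq2, beside 1623 of 11947 by limma. Whether the subunits differ was not tested. Of 32 proteins of the small subunit of the cytosolic ribosome 1, Rps21, fell (3.12%), at 10290, 10251 and 10254 against 9033, 9160 and 9089. DESeq2 called 6 of the 32 lower. Rps21 lost its call in 7 of the 20 alternative analyses, 5 of them limma fits with 1 library left out (each but Stat3C replicate 2). The others were limma without a variance trend and edgeR without Stim1KO Stat3C replicate 3. The median of these 32 was -0.09, with 30 of them negative.

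Among genes that act with the small subunit, a few fell, where 4.96% of all genes tested did. Of 10 genes for its assembly and for modification of 12S ribosomal RNA, Noa1, a GTPase needed for small subunit assembly, fell from 1384 ± 59.7 to 1133 ± 43.3 (SD, n = 3, log2 -0.29, limma adjusted p = 0.0243), and the other 9 did not pass (list median -0.13). Of 14 factors of mitochondrial translation 3 fell and none of the other 11 passed (list median -0.105). These were the elongation factor genes Tsfm (1054, 1021 and 1187 against 803.9, 816.1 and 865.8), Gfm1 (3291, 2849 and 3305 against 2271, 2505 and 2516) and Tufm (4277, 4193 and 4608 against 3692, 3653 and 3792). Of the 20 alternative analyses, Noa1 lost its call in 8, Tufm in 7, Gfm1 in 6 and Tsfm in 4. In limma fits, each of the 4 lost it without Stat3C replicate 1 or 3. The same held without Stim1KO Stat3C replicate 1 or 2 (limma adjusted p over these fits 0.0538 to 0.1116). Noa1 and Tufm also lost it without Stim1KO Stat3C replicate 3 (limma adjusted p = 0.0525 and 0.0544). By edgeR without that library, Noa1, Tufm and Gfm1 lost it (edgeR adjusted p = 0.0611, 0.0571 and 0.053). The initiation factor genes Mtif2 and Mtif3, which act on the small subunit itself, had log2 fold changes of 0.02 and 0.03.

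The genes of the factors that are known to drive nuclear genes for mitochondria did not pass with all 6 libraries. By limma 0 of 9 measured did, where 4.96% of all genes tested fell and 8.62% rose. The count was also 0 at an unadjusted p under 0.05, and 0 by edgeR and by DESeq2. Yy1 stood at 2482, 2301 and 2310 against 2533, 2091 and 2246, and Gabpa at 2064, 1938 and 2035 against 1936, 1956 and 2161, both with overlap. Myc stood at 9235, 7791 and 9221 against 8554, 8502 and 8930, and the PGC-1-related coactivator gene Pprc1 at 4682, 3872 and 4304 against 3967, 3940 and 3730 (log2 -0.14, limma adjusted p = 0.235). Pprc1 passed without Stat3C replicate 2 (log2 -0.21, limma adjusted p = 0.0328) and with library quality weights (log2 -0.22, limma adjusted p = 0.0207), and in no other of the 20 alternative analyses. Ppargc1a, which encodes PGC-1 alpha, was at 0 in every library. At these depths a 0 leaves room for 3 reads, or 1.30 to 4.11 normalised counts by library. Protein levels and the activity of these factors were not measured.

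**Figure D5:**
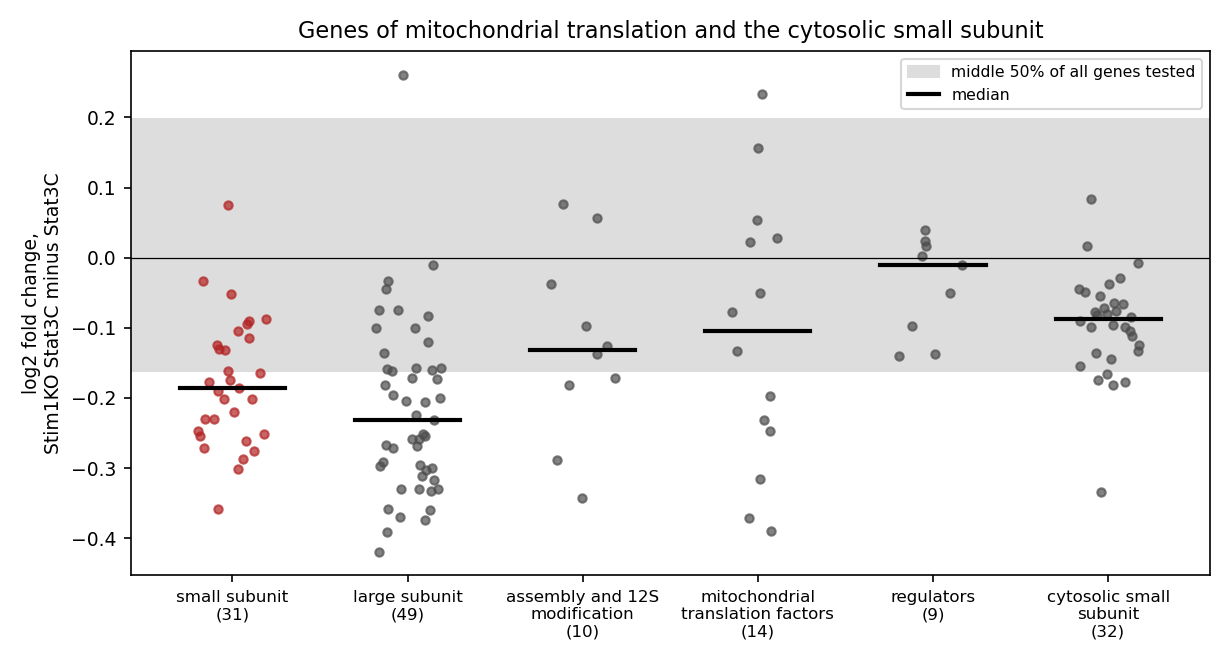
Log2 fold change of single genes (points, vertical axis, Stim1KO Stat3C minus Stat3C) by list, with the median of each list as a bar and the number of genes in brackets. The grey band holds the middle 50% of all genes tested, from -0.16 to 0.20, and the medians of the small and large subunit, -0.19 and -0.23, lie below it.

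The members are spread over 14 chromosomes. Of the 31, 11 (35.5%) start within 1000 bases of a protein-coding gene on the other strand, against 17% of genes tested and 47.9% of the large subunit. For 10 of these members the neighbour was tested. None of the 10 neighbours passed by limma (5 at an unadjusted p under 0.05, 1 call by edgeR and 3 by DESeq2). By limma, 4.96% of all genes tested fell and 8.62% rose. The median log2 fold change of the neighbours was -0.06, beside -0.22 for the members they adjoin. Mrps12 starts 172 bases from Sars2, the mitochondrial seryl-tRNA synthetase gene, which stood at 796.6, 795.3 and 841.1 against 776.5, 746.3 and 762.3 (log2 -0.09, limma adjusted p = 0.388). Mrps11 starts 412 bases from Mrpl46 of the large subunit (log2 -0.28 and -0.30), and Mrps27 81 bases from Ptcd2 (log2 -0.26 and -0.22). Mrps7 starts 126 bases from Gga3, which had a positive fold change (log2 0.22, limma adjusted p = 0.0937). All these distances are between GENCODE starts, which for Mrps7 is not the RefSeq start used for its promoter.

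Several members share exons or sequence with other genes, and the sources used here do not give the strand setting of the counting. Exons of 7 members overlap a gene on the other strand. These include Mrps7 with Gga3 and Mif4gd, Mrps26 with 4930473A02Rik and Mrps27 with 6430562O15Rik, and reads in such overlaps may have been lost or assigned to either gene. Mif4gd rose, from 1507, 1574 and 1500 to 1851, 2069 and 2012 (log2 0.37, limma adjusted p = 0.00887), opposite to Mrps7. Mrps6 shares exons on its own strand with Slc5a3, so its values of 1013, 946.3 and 1128 against 876.5, 768.9 and 1054 are uncertain. In 8 members over 10% of the 50-base words of the transcripts also occur in other annotated transcripts. The highest shares were 33.7% in Mrps36, which has pseudogenes, 32.2% in Mrps6 and 27.2% in Mrps18b. For the 4 members that fell the share was 0 (Mrps12, Mrps27), 0.523% (Mrps7) and 5.27% (Mrps26).

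Levels between genes were compared per length, as normalised counts per 1000 exonic bases of the GENCODE annotation (release 21, GRCm38). In Stat3C the median of the 31 members was 928.9 on this scale, and 730.3 in Stim1KO Stat3C, with Mrps28 in the middle place in both. Mrps28 also had the most negative fold change of the 31, so this pair gives the difference of that gene alone (-21.4%). The summed counts of the members differed by -11.4%. The highest levels were those of Mrps18b (2528 and 2149) and Mrps21 (2433 and 2565), and the lowest those of Mrps25 (152.7 and 140.1) and Mrps17 (191.7 and 169.1). Long alternative exons lower this value, with 6073 exonic bases annotated for Mrps25 and 492 for Mrps21, so the order reflects the annotation as well as abundance. The gene of Mrps12 spans chromosome 7, 28739641 to 28741820 (minus strand), that of Mrps26 chromosome 2, 130563742 to 130568695 (plus), that of Mrps27 chromosome 13, 99344786 to 99415562 (plus) and that of Mrps7 chromosome 11, 115603925 to 115608036 (plus).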

How the data were processed

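The deposited table gives a normalised signal per gene and library. Build mm10, DESeq2 1.22.2, HTSeq 0.11.1 and TopHat2 2.1.1 are listed without roles, per the submitters' processing notes. The sources used here do not give gene models or counting settings. In each library 100% of the authors' signal values came out as whole multiples of 1 step (tolerance 0.01), so reads could be recovered. For Stim1KO Stat3C replicate 3 the step (0.995) is too close to 1 to be told from rounding. Of 23420 rows, 27 had names turned into dates (at most 0.217% of reads) and were left out.

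Members, lists and tests were chosen with earlier results of these data known. On log2(value + 1), limma was run with a variance trend, two-sided and without covariate, over 11947 genes with a mean of at least 10, Benjamini-Hochberg adjusted. Intervals are limma's at 95%. Count models (edgeR, DESeq2, voom) ran on recovered reads as alternatives. Replicates were numbered in accession order. Named genes are all members, Stim1, Chchd1, Aurkaip1 and, per list, at most 4 that passed, in order of adjusted p, or else the 2 with the highest mean. Mrpl33, Mtif2, Mtif3, Yy1, Gabpa, Ppargc1a and the neighbours and overlapping genes of members were named after their values were seen. Rps19bp1, no ribosomal protein, was left out of the Rps list. The steps were tested on simulated data. Versions were DESeq2 1.42.0, edgeR 4.0.16, limma 3.58.1 and R 4.3.3. Of the cell type markers, 2 are not reported here.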

Additional observations from a re-analysis of the deposited data

How the results depend on the processing

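Of 20 alternative analyses 19 were planned, and edgeR without Stim1KO Stat3C replicate 3 was chosen after seeing the data. The log2 fold change was negative for 30 members in 19 of them and for 29 without Stat3C replicate 3, where that of Mrps31 turned from -0.09 to 0.055 (range with 1 library left out -0.222 to 0.055). No member rose in any. The members that fell (4) numbered 2 with no filter beyond a value above 0, 1 with limma without a variance trend, 19 with library quality weights, 8 with DESeq2 and 2 with voom. With 1 library left out they numbered 0 to 12, the median -0.26 to -0.15, the genes called 617 to 2899 and the large subunit genes that fell 2 to 27 and that rose 0 to 1. All genes called (1623) were 827 with limma without a variance trend, 3959 with quality weights and 922 by edgeR without Stim1KO Stat3C replicate 3. With DESeq2 and voom they numbered 2250 and 1350. The large subunit genes that fell (16) were 5 without the trend and 34 with the weights, and that rose (1) were 0 without the trend and 0 by edgeR without Stim1KO Stat3C replicate 3. Myc, at -0.01, ranged from -0.092 to 0.031 with 1 library left out and was above 0 in 3 of these fits (Stat3C replicate 1, Stat3C replicate 3 or Stim1KO Stat3C replicate 2 dropped). The causes were not tested. Rescaling with TMM or to the upper quartile gave 4 and 5 members that fell. No paired analysis was possible because the labels give the groups no shared replicate numbers. With log2 Xist as a covariate, which sets replicate 3 of each group apart, 4 members fell, 3 of them the same, with Mrps14 in place of Mrps27. Where a library is left out its group has 2 libraries, and the spread is pooled over both groups. With reads thinned to the shallowest library 6 members fell, among them all 4.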
